A study of Mus musculus with 10 samples.

Results

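The genes described here are outputs and stabilising arms of the circadian clock of the liver: *Dbp*, *Tef* and *Hlf*, *Nfil3*, *Bhlhe40* and *Bhlhe41*, *Rora* and *Usp2*. They were chosen by name, and every probe that the platform annotation pairs with them was taken. In GRCm38.p6 the genes lie at chr7:45705100-45710203 (*Dbp*), chr15:81802673-81826863 (*Tef*), chr11:90336535-90390917 (*Hlf*), chr13:52967209-52982878 (*Nfil3*), chr6:108660629-108666925 (*Bhlhe40*), chr6:145858243-145865420 (*Bhlhe41*), chr9:68653404-69388246 (*Rora*) and chr9:44067021-44095627 (*Usp2*). There were 12 such probes among the 45281 on the array, for 7 of the 8 genes. *Nfil3* was not analysed here. Hepatic RNA came from 10 mice of the 129S1/SvImJ;C57Bl/6J (129/B6) strain, an isogenic line bred from a cross of these backgrounds. The WD SW group (5 livers) received Western diet and drinking water with fructose and glucose for 8 weeks. The CD group (5 livers) received a chow diet for the same time and, as the study describes it, plain water. The study names young adult males in its account of the diets, and no source used here gives the hour at which livers were taken. Each liver was hybridised to 1 Illumina mouse bead array. Replicate numbers only name the arrays, and the p-values rest on the spread between these 10 samples, which no label ties to separate cages or days.

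DBP, TEF and HLF are the PAR bZIP transcription factors, which activate genes through a DNA element called the D-box. NFIL3 represses through the same element. The core loop starts with the dimer of BMAL1, encoded by *Arntl*, and CLOCK, which drives *Dbp*, *Per1*, *Per2* and *Bhlhe40* through E-box elements, and PER and CRY proteins then repress that dimer. BHLHE40 and BHLHE41, also called DEC1 and DEC2, compete for E-boxes. RORA activates *Arntl*, against the REV-ERB repressors encoded by *Nr1d1* and *Nr1d2*. USP2 is a deubiquitinating enzyme with a strongly rhythmic transcript in mouse liver. In this organ the PAR bZIP factors are known for driving genes of xenobiotic, heme and bile acid metabolism.

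Upstream sequences are shown for *Dbp*, the gene with the largest difference below, for *Tef*, its PAR bZIP relative, and for the clock gene *Per1* at the first of its start sites. They are the 250 bases before a RefSeq start site, 5′ to 3′ on the strand of the gene (GRCm38.p6). Capitals mark a CACGTG E-box, a D-box (TTATGNAA or TTACGTAA) or the ROR element core AGGTCA, searched on both strands, so that AGGTCA on the other strand reads TGACCT.
Dbp, chr7:45704997-45705246 (+): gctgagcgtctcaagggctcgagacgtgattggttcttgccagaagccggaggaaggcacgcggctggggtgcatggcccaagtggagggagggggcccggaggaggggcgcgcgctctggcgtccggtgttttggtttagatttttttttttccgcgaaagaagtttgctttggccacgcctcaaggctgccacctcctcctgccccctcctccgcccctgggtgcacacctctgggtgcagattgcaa
Tef, first start, chr15:81802423-81802672 (+): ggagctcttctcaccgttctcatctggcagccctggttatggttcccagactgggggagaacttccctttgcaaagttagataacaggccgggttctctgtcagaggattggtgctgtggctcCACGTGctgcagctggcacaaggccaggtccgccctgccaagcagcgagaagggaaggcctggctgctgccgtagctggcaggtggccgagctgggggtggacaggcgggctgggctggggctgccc
Tef, second start, chr15:81811164-81811413 (+): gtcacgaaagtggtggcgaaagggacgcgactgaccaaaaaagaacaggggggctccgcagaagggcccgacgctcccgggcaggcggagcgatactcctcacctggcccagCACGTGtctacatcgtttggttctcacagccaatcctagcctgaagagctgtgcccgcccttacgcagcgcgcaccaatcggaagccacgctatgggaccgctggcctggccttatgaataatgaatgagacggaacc
Per1, chr11:69098699-69098948 (+): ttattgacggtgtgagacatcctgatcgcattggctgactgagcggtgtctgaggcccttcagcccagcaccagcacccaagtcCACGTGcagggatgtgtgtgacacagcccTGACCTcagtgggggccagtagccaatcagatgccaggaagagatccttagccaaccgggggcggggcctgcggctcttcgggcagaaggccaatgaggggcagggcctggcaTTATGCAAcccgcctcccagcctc
Both *Tef* windows held an E-box, beginning 127 and 138 bases before the start, and the *Per1* window held an E-box, an AGGTCA core on the other strand and the D-box TTATGCAA. The matches in the printed windows did not overlap one another. The *Dbp* window held none of these motifs, and neither did the window of the other *Per1* start site, which is not printed. Of the 32851 windows of this length in the RefSeq table, 6.02% held CACGTG, 3.07% TTATGNAA, 0.113% TTACGTAA and 14% AGGTCA. Of the other members with a window, *Bhlhe41* held an E-box and *Nfil3* an AGGTCA core, while the windows of *Hlf*, *Rora* and *Usp2* held none. These matches are descriptions of sequence, and the arrays did not measure binding.

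Signals are given as log2 values after background correction and quantile normalization. A probe counted as above background where its signal exceeded the array's background level at a one-sided p of 0.05, and a probe was tested if this held for 5 or more of the 10 arrays. Of the 12 member probes, 6 passed, 1 each for *Dbp*, *Tef*, *Hlf*, *Bhlhe40*, *Rora* and *Usp2*, and each was above background in both diets. Most CD arrays were dimmer. The 95th percentile of signal on an array averaged 937 ± 64.6 in WD SW and 558 ± 209 in CD (SD, n = 5 each), with CD replicate 1 at 921 and CD replicates 2 to 5 between 403 and 548. Hepatocyte markers ranged from bright to near background. *Ttr* lay at 14.74 ± 0.096 on WD SW and 14.77 ± 0.10 on CD arrays, and *Tat* at 5.29 ± 0.13 and 5.83 ± 0.16 (SD, n = 5 each). Of the 7 hepatocyte genes 3 were lower, among them *Alb* (-1.93 ± 0.22). Of the markers of other liver cells, 3 of 5 stellate cell genes were higher by their brightest probes (*Dcn*, *Col1a1* and *Lrat*), although another *Dcn* probe was lower (-0.45 ± 0.15, adjusted p = 0.0307). *Col1a1* was above background on 5 WD SW arrays and 1 CD array, so its call is little support. *Des*, of the same list, leaned the other way and was not called (-0.41 ± 0.19, adjusted p = 0.108). Of the 5 sinusoidal endothelial genes 1 was higher (*Lyve1*) and 1 lower (*Kdr*), and the only cholangiocyte gene tested, *Sox9*, was lower. By limma 0 of 5 Kupffer cell, 0 of 2 neutrophil and 0 of 1 lymphocyte genes were called, with 1 of each list at an unadjusted p under 0.05. The summed linear signal of those 5 stellate genes was 6344 to 7899 on WD SW arrays and 5042 to 6210 on CD arrays, and the part of these shifts in the results below was not tested. In whole liver, fewer cells of a type and less RNA per cell cannot be told apart.

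Expression of *Dbp* was far higher in WD SW livers, that of *Bhlhe40* and *Usp2* was moderately higher, and that of *Hlf* was lower near the limit of detection. *Tef* and *Rora* did not pass the test. In limma's linear model with Benjamini-Hochberg adjustment over all 17362 tested probes, 4 of the 6 member probes passed an adjusted p of 0.05, 3 higher and 1 lower. The background was high: 31.4% of all tested probes were called, 17.3% higher and 14.1% lower. A difference of more than 1 log2 unit, found for *Dbp* and *Usp2* among the members, was found for 7.31% of all tested probes.

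**Figure D1:**
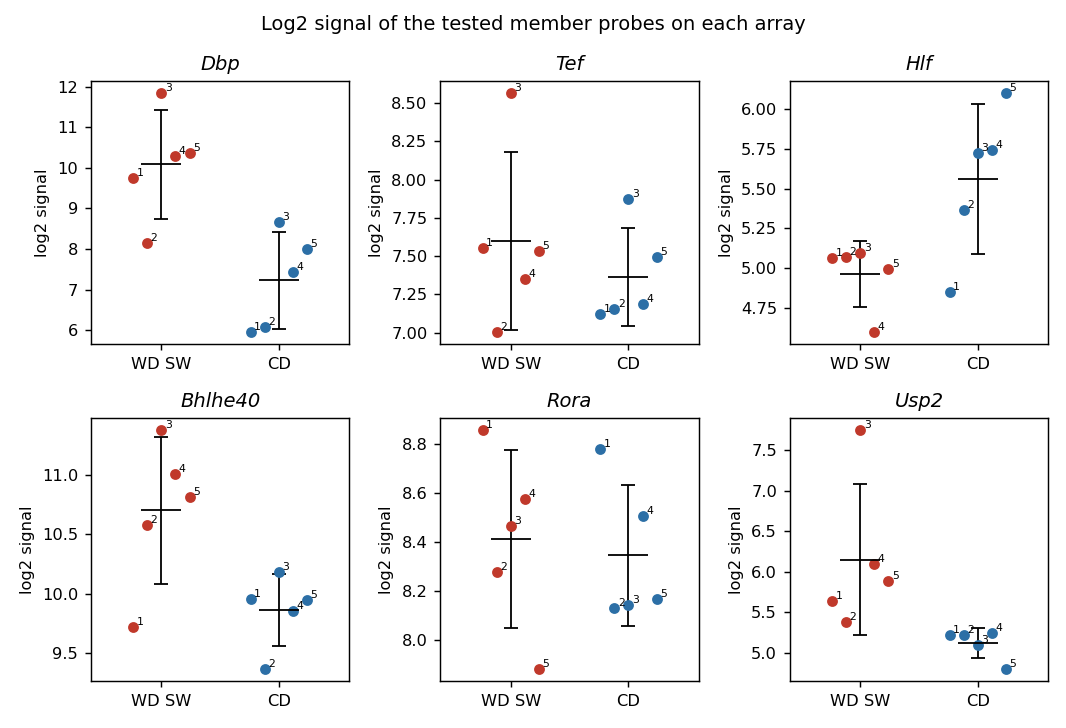
Log2 signal of the 6 tested member probes on each array, WD SW left and CD right; points are arrays labelled by replicate number, and lines are the mean ± SD (n = 5 each). WD SW replicate 3 is the highest WD SW array for every gene but *Rora*, and only for *Usp2* do the 2 diets not overlap.

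*Dbp* is the clock output whose transcript is known to swing most widely over the day. Its log2 signal was 9.75, 8.14, 11.85, 10.30 and 10.37 on WD SW replicates 1 to 5, against 5.95, 6.08, 8.67, 7.43 and 8.01 on CD replicates 1 to 5. In 24 of the 25 pairs of arrays WD SW was above CD, the exception being WD SW replicate 2 below CD replicate 3. The unnormalized signals were 434 to 4122 on WD SW arrays and 109 to 295 on CD arrays. These ranges did not overlap, but they are not corrected for the lower brightness of most CD arrays. The share of all probes that separate on unnormalized signals was not counted. The log2 fold change of *Dbp* was 2.86 ± 0.60 (SE, 95% interval 1.57 to 4.14, n = 5 per diet, limma adjusted p = 0.00265), a 7.24-fold increase. It ranked 38 among the 17362 tested probes by size of increase. The log2 fold change was 2.35 to 4.63 over the 24 alternative settings, and the difference passed under each that kept more than 1 CD array. The value was 4.63 with array brightness as a covariate and 4.19 against CD replicate 1 alone, the CD array as bright as the WD SW arrays. That array also had the lowest *Dbp* of all 10 (5.95), while the dim CD replicate 2 read 6.08. The part of brightness in these larger values was not tested. With CD replicate 1 as the 1 control array, the spread in the fit comes from the WD SW arrays alone. The spread among CD livers is then not measured, so values of that fit are given below without a p.

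*Dbp* also varied widely within each diet. Its SD was 1.33 on WD SW arrays and 1.19 on CD arrays, against medians over all tested probes of 0.20 and 0.30. Its highest and lowest livers lay 3.71 log2 units apart in WD SW and 2.72 apart in CD. The titles of the arrays hold a number of unstated meaning, and with it as a random block *Dbp* stood at 2.75 (adjusted p = 0.00653).

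*Tef* encodes the second PAR bZIP activator. The tested probe read 7.55, 7.0, 8.57, 7.35 and 7.53 on WD SW replicates 1 to 5, against 7.12, 7.15, 7.87, 7.19 and 7.49 on CD replicates 1 to 5. The diets overlapped, with WD SW replicate 3 above and WD SW replicate 2 below every CD array. The difference was 0.23 ± 0.25 (adjusted p = 0.499), with a 95% interval of -0.29 to 0.76 that lay wholly below the interval of *Dbp*. The other *Tef* probe, for another transcript, was above background on 2 WD SW arrays and 1 CD array and was not tested.

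*Hlf* encodes the third PAR bZIP activator, and its only probe was barely above background. It read 5.07, 5.07, 5.09, 4.60 and 4.99 on WD SW replicates 1 to 5, against 4.85, 5.37, 5.73, 5.74 and 6.10 on CD replicates 1 to 5. The bright CD replicate 1 lay within the WD SW values, and the 4 dim CD arrays lay above them. The fit gave a log2 fold change of -0.59 ± 0.20 (adjusted p = 0.0384). Before normalization the probe lay -1.76 to 10.75 signal units above the array's background level on WD SW arrays and 2.90 to 19.49 units on CD arrays, with the background itself at 77.9 to 88.1 units. With array brightness as a covariate the value was 0.092 (adjusted p = 0.881), and set against only the bright CD array it was 0.13. The call was also lost with the authors' values (-0.26, adjusted p = 0.0622), with the title number as a random block (-0.61, adjusted p = 0.0644) and in 8 of the 10 fits that left out 1 array, where the value ranged from -0.77 to -0.48.

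*Bhlhe40*, the E-box repressor DEC1, was well above background on every array. It read 9.72, 10.58, 11.38, 11.01 and 10.81 on WD SW replicates 1 to 5, against 9.96, 9.37, 10.19, 9.86 and 9.94 on CD replicates 1 to 5. WD SW replicates 2 to 5 lay above every CD array, while WD SW replicate 1 lay below all CD arrays but replicate 2. *Bhlhe40* rose by 0.84 ± 0.25 (adjusted p = 0.0209), a 1.79-fold increase. The call was lost with the brightness covariate (1.06, adjusted p = 0.168) and without WD SW replicate 3, WD SW replicate 4 or CD replicate 2 (0.67, 0.77 and 0.71, adjusted p = 0.0565, 0.0563 and 0.0526). The value was 0.73 with CD replicate 1 as sole control. Its paralog *Bhlhe41*, DEC2, read 4.70 to 5.01 on WD SW arrays and 4.44 to 4.77 on CD arrays and was not above background on any array.

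*Rora*, the activator of *Arntl*, overlapped between the diets. The tested probe read 8.86, 8.28, 8.46, 8.58 and 7.88 on WD SW replicates 1 to 5, against 8.78, 8.13, 8.14, 8.51 and 8.17 on CD replicates 1 to 5. The difference was 0.065 ± 0.19 (adjusted p = 0.824), with a 95% interval of -0.34 to 0.47. Its sign turned with the brightness covariate and against CD replicate 1 alone (-0.30 and -0.36). A second *Rora* probe was not above background on any array.

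*Usp2* was the one member whose diets did not overlap, a property of 20.9% of all tested probes (11.5% with WD SW wholly above and 9.38% with it wholly below). The tested probe read 5.63, 5.38, 7.75, 6.09 and 5.89 on WD SW replicates 1 to 5, against 5.22, 5.21, 5.09, 5.25 and 4.80 on CD replicates 1 to 5. It was above background on 5 WD SW arrays and 3 CD arrays, and WD SW replicate 3 stood well above the rest. *Usp2* rose by 1.03 ± 0.33 (adjusted p = 0.0289), a 2.05-fold increase, and by 0.62 without WD SW replicate 3 (adjusted p = 0.0177). The call was lost without WD SW replicate 4 (1.02, adjusted p = 0.0562) or CD replicate 5 (0.98, adjusted p = 0.0579), with median scaling (0.48, adjusted p = 0.264) and with the brightness covariate (1.18, adjusted p = 0.255). It was lost as well with the authors' values (0.53, adjusted p = 0.0928), without background correction (0.54, adjusted p = 0.102), with an offset of 50 (0.66, adjusted p = 0.0757), with array weights (1.06, adjusted p = 0.0591), without CD replicates 3 and 4 (1.14, adjusted p = 0.063) and with the title number as a random block (1.01, adjusted p = 0.0669). The other 3 *Usp2* probes lay at background, with 1 of them above it on a single WD SW array.

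**Figure D2:**
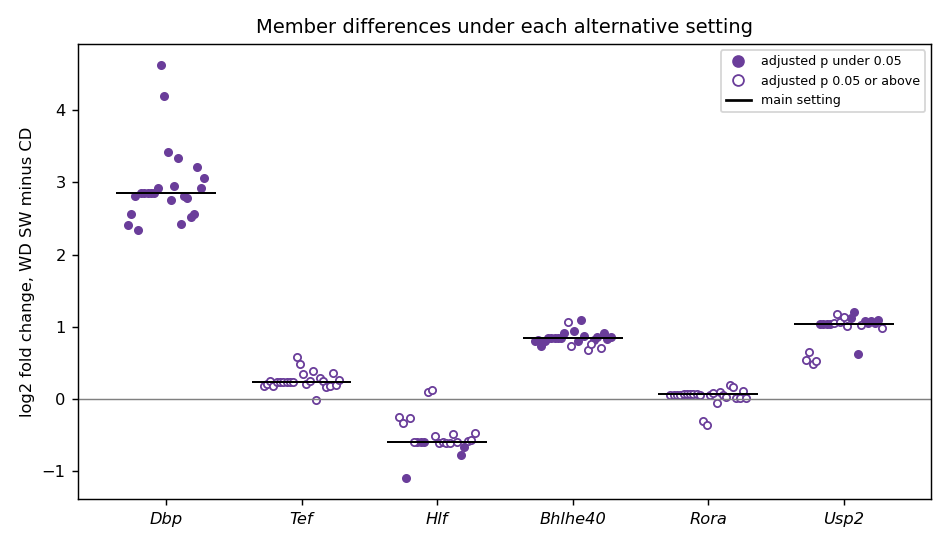
Log2 fold change (WD SW minus CD) of each tested member probe under the alternative settings; the line is the main value, filled points have an adjusted p under 0.05 and open points do not. All 24 *Dbp* values lie between 2.35 and 4.63, whereas *Hlf* lies on both sides of 0. With the bright CD array as sole control the spread among CD livers is not measured. The fill of those points is therefore no support.

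Among the 13 core clock genes analysed, 10 were tested, by the brightest tested probe of each. Of these 3 rose and 2 fell, with a median of 0.37 against -0.05 over all 10184 genes tested. Of all genes tested, 30.0% were called, 14.5% higher and 15.4% lower. Among the 3 that rose, *Per1* could be tested only through its WD SW values, and *Cry2* was above background on 5 WD SW arrays and 1 CD array. *Cry1*, *Npas2* and *Per3* were not above background on enough arrays to be tested. *Arntl*, which encodes BMAL1, read 7.18, 7.74, 5.92, 7.01 and 6.77 on WD SW replicates 1 to 5, against 8.66, 8.48, 8.77, 8.65 and 8.70 on CD replicates 1 to 5. The diets did not overlap, and the CD livers were nearly uniform. *Arntl* fell by 1.73 on the log2 scale (-1.73 ± 0.25, adjusted p = 0.000188), and its partner *Clock* fell as well (-0.69 ± 0.16, adjusted p = 0.00431). With the brightness covariate *Clock* stood at -0.40 (adjusted p = 0.393) and *Arntl* at -1.88 (adjusted p = 0.0242). With the bright CD array as sole control *Clock* stood at -0.29 and *Arntl* at -1.75.

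*Per1* and *Per2* encode repressors of BMAL1 and CLOCK. *Per1* read 6.76, 5.70, 7.36, 5.98 and 5.41 on WD SW replicates 1 to 5, against 4.92, 4.92, 4.55, 4.56 and 4.85 on CD replicates 1 to 5. All 5 CD values were within background, and the WD SW mean was at least 2.12-fold higher. Since *Per1* passed the filter through WD SW alone, it had to differ, and its adjusted p of 0.00176 is no support. The brightest *Per2* probe rose by 1.15 ± 0.40 (adjusted p = 0.0396), with values of 8.59 to 10.50 on WD SW and 7.20 to 9.22 on CD arrays. The other *Per2* probes tested did not pass, at 0.97 ± 0.36 (adjusted p = 0.0549) and, with the opposite sign, -0.37 ± 0.20 (adjusted p = 0.184). The call of the brightest probe was lost with the authors' values (0.96, adjusted p = 0.0749), with the title number as a random block (1.17, adjusted p = 0.0705) and without any one of WD SW replicates 1, 3 and 5 or CD replicates 1, 2 and 5 (0.85 to 1.18, adjusted p = 0.0618 to 0.0985). *Cry2* rose by 0.45 ± 0.16 (adjusted p = 0.0402), but was above background on 5 WD SW arrays and 1 CD array. It met the filter through its WD SW values, so this p is little support. *Cry2* stood at -0.24 with median scaling and at -0.037 against CD replicate 1 alone, and lost its call in 9 of the 10 fits that left out 1 array (0.39 to 0.57). The REV-ERB genes were not called by their brightest probes (*Nr1d1* 0.12 ± 0.23 and *Nr1d2* 0.48 ± 0.25, adjusted p = 0.725 and 0.160), although a dimmer *Nr1d2* probe was (0.50 ± 0.16, adjusted p = 0.0257).

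**Figure D3:**
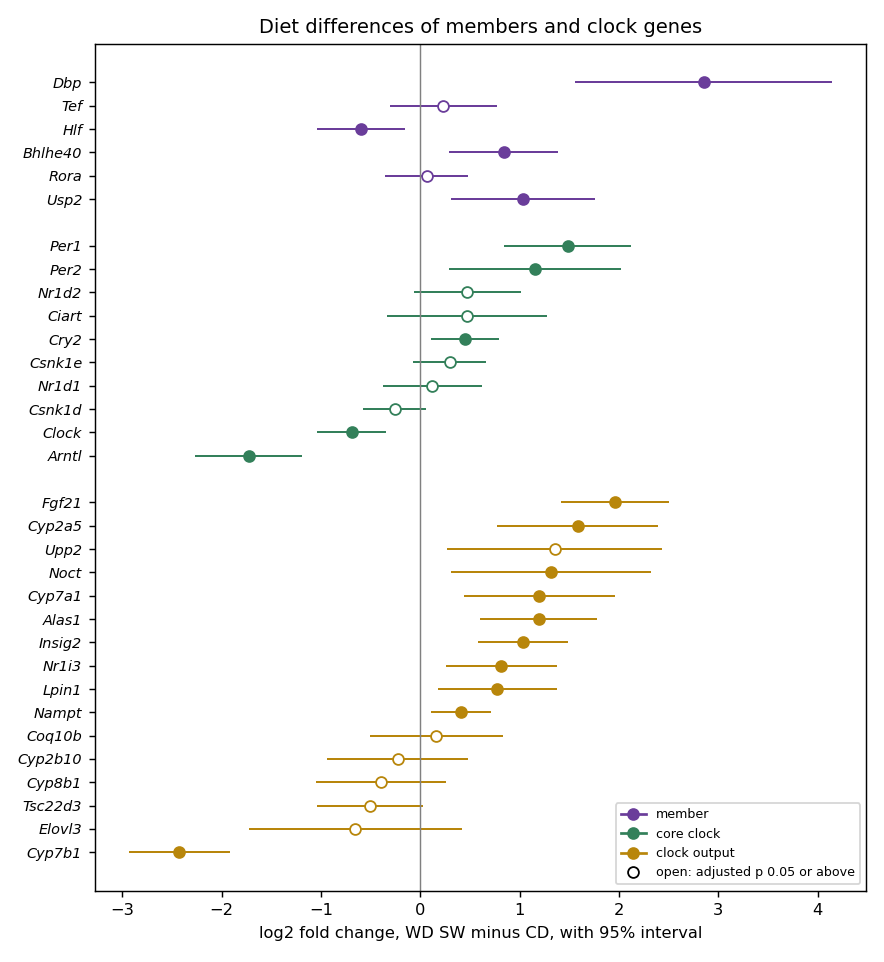
Log2 fold change (WD SW minus CD) with its 95% interval for the tested members, core clock genes and clock output genes, each by its brightest tested probe; open points have an adjusted p of 0.05 or above. *Dbp* has the largest increase at 2.86, and *Arntl* (-1.73) and *Cyp7b1* (-2.42) have the largest decreases; *Per1* is drawn at its fitted value, which is no bound.

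Single livers departed in the same direction across several of these genes. WD SW replicate 3 had the highest value of its diet for 5 of the 6 tested member probes and for *Per1*, *Per2* and *Ciart*, an E-box target that represses the clock. For *Hlf* it was barely the highest (5.09, with replicates 1 and 2 at 5.07), near background. It had the lowest *Arntl* and *Clock*, and also the lowest *Nr1d1* (5.39, with replicate 2 at 5.40). The share of all probes that were highest on this array was not counted. WD SW replicate 2 had the lowest *Dbp*, *Tef* and *Usp2* and the highest *Arntl*. Across the 5 WD SW livers the order by *Arntl* was the exact reverse of the order by *Dbp*. In the CD livers *Arntl* spanned only 0.29 log2 units while *Dbp* spanned 2.72. There the orders by *Dbp* and by *Tef* were identical, with replicate 3 highest, followed by 5, 4, 2 and 1. These orders rest on 5 arrays each and are descriptions without a test.

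**Figure D4:**
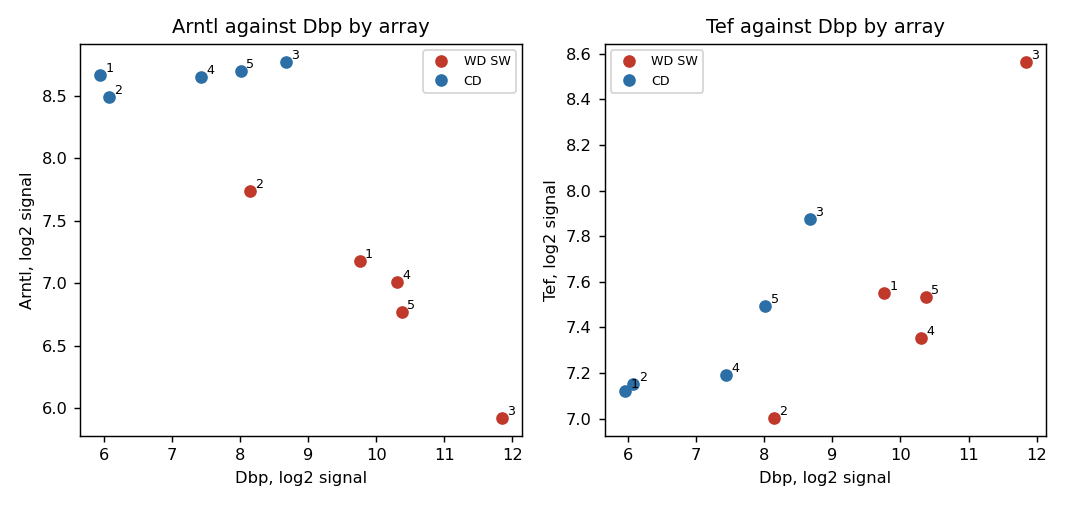
Log2 signal of *Arntl* (left) and *Tef* (right) against that of *Dbp*, with a point for each array, labelled by replicate number. WD SW arrays run from high *Arntl* at low *Dbp* (replicate 2) to low *Arntl* at high *Dbp* (replicate 3), and CD arrays keep *Arntl* between 8.48 and 8.77.

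The list of clock output genes holds transcripts known to be rhythmic in mouse liver or to be driven by PAR bZIP, ROR or related factors. Of its 18 genes 16 were tested, each by its brightest tested probe, and 9 rose and 1 fell, with a median of 0.80. Over all 10184 genes tested, 14.5% were called higher and 15.4% lower, with a median of -0.05. Probes of the same gene could differ. *Nr1i3* rose by its brightest probe (0.82 ± 0.26, adjusted p = 0.0255) and by another (1.39 ± 0.30, adjusted p = 0.00298). Its other tested probes fell (-0.50 ± 0.16, adjusted p = 0.0306) or were not called (-0.30 ± 0.23, adjusted p = 0.337). The hormone gene *Fgf21* rose by 1.96 ± 0.25 (adjusted p = 7.3e-05), with 7.51 to 8.79 on WD SW and 5.48 to 6.64 on CD arrays. *Alas1*, the rate-limiting enzyme of heme synthesis and a PAR bZIP target, rose by 1.19 ± 0.27 (adjusted p = 0.00418), with 12.48 to 13.38 on WD SW and 10.57 to 12.10 on CD arrays. *Cyp7a1*, the rate-limiting enzyme of bile acid synthesis and a DBP target, rose by 1.20 ± 0.35 (adjusted p = 0.018). *Cyp2a5*, a xenobiotic cytochrome with a close paralog whose RNA may share its probes, rose by 1.58 ± 0.37 (adjusted p = 0.00537), while 1 of its other 4 tested probes did not pass (0.54 ± 0.33, adjusted p = 0.231). *Noct*, a rhythmic phosphatase also called nocturnin, rose by 1.32 ± 0.46 (adjusted p = 0.0431).

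The gene of the list that fell was *Cyp7b1*, an oxysterol hydroxylase and ROR target, at 10.46 to 11.55 on WD SW and 12.65 to 13.89 on CD arrays (-2.42 ± 0.23, adjusted p = 9.56e-06). *Fgf21* and *Cyp7b1* passed under every alternative that kept more than 1 CD array. The other 4 genes named did not pass with the brightness covariate, where *Cyp2a5* stood at 0.16 (adjusted p = 0.871), *Alas1* at 1.26 (0.128), *Cyp7a1* at 1.44 (0.183) and *Noct* at 1.48 (0.311). *Noct* also lost its call without any one of WD SW replicates 1 to 4 or CD replicates 1, 2 and 5 (0.85 to 1.41, adjusted p = 0.0547 to 0.0999), and *Cyp7a1* without WD SW replicate 5 (1.02, adjusted p = 0.0502).

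The genes whose centred profile lay nearest to each called member over the 10 arrays were found among 10184 genes by the root mean square difference. For *Usp2* they were *Klf2* (0.37 log2 units), *Il1b* (0.39) and *Slc5a6* (0.39), and for *Bhlhe40* they were *Rhob* (0.25), *Slc5a6* (0.26) and *Col1a1* (0.30). For *Dbp* the nearest were *Ear3*, *Lgals3* and *Cidec*, at 1.08, 1.09 and 1.09, against a root mean square of 1.82 for *Dbp* itself, so even the nearest profiles lay far from it. *Cidec* was above background on only 5 of the 10 arrays and *Col1a1* on 6, so parts of their profiles are background. For *Hlf* the nearest were *Relt* (0.095), *Ctsr* (0.11) and *Ifna1* (0.14), whose mean log2 signals of 5.93, 5.63 and 5.66 were low, like that of *Hlf*.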

How the data were processed

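Total RNA from 10 livers was measured on Illumina mouse bead arrays. The authors deposited an unnormalized table of linear signal intensity per probe and array, used here, and a table of intensity values they had normalized by a method not given in the sources used here, which served as an alternative. Background per array was the mode of the log2 signals (bandwidth 0.02). Signals were corrected by normexp (offset 16), quantile normalized and log2 transformed, and WD SW minus CD was fitted per probe with limma 3.58.1 (R 4.3.3) on all 10 arrays, without covariates. Quantile normalization gives all arrays 1 distribution, so differences are relative to it. Probes were named through the platform annotation, and symbols were checked against the RefSeq gene table of GRCm38.p6. The genes named are all member probes, the called genes of the clock lists (up to 5 each way) and the 3 nearest profiles. The members, lists and settings were chosen with earlier results of these data known. In simulated data for this comparison (17362 probes), 8 of 50 probes changed by 0.5 log2 units and 43 of 50 changed by 1 were recovered. Far fewer probes were changed there than were called in the data, which makes the adjustment stricter. The rates for the data themselves may therefore differ. The number of arrays limits the precision.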

Additional observations from a re-analysis of the deposited data

Results flagged for a closer look

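In 5 of the 56 sets of 5 arrays examined (each named probe in each diet), 1 array lay far from the other 4, with a gap over 0.71 of the whole range. Chance gives about 1 in 20. *Hlf* read 4.60 on WD SW replicate 4, and the next array of its diet read 4.99. *Klf2*, the nearest profile to *Usp2*, read 7.67 on WD SW replicate 3 and at most 6.64 on the other WD SW arrays. *Cry2* read 5.45 on CD replicate 1, the bright CD array, and at most 4.92 on the others. *Ifna1*, a neighbour of *Hlf*, read 5.07 on that array and at least 5.96 on the others. *Fgf21* read 5.48 on CD replicate 4 and at least 6.31 on the other CD arrays.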

How the results depend on the processing

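No paired analysis was possible because the replicate numbers only follow the order of listing. Of the 6 tested member probes, 4 were called. The count was 2 without background correction, with an offset of 50, with the authors' values, with detection on all 10 arrays (4 probes tested), without CD replicates 3 and 4 and with a random block for the title number. It was 1 with the brightness covariate. In the main setting 66.7% of member probes were called, against 31.4% of all tested probes. These shares were 33.3% and 30% without background correction and with the authors' values, and 33.3% and 30.5% with the offset of 50. They were 50% and 37.5% with detection on all 10 arrays, 33.3% and 24.7% without CD replicates 3 and 4, 33.3% and 23.8% with the block, and 16.7% and 4.68% with the covariate. With median scaling they were 50% and 51%, and without WD SW replicate 4 they were 16.7% and 24.7%. The share of members was the lower of the pair under both of these settings. The count of members ranged from 1 to 4 when single arrays were left out, with *Dbp* called in each. That is 16.7% to 66.7% of the 6 tested, against 24.7% to 35.5% of all tested probes in those fits. Of the 5 core clock genes called, 3 were called without background correction, with the offset of 50, with the authors' values, with no filter, with detection on all 10 arrays and with the block. The core clock count was 1 with the covariate (10% of those tested) and 2 to 4 without single arrays (22.2% to 40%). Without background correction and with the authors' values, 30% of the core clock genes tested were called, against 30% of all tested probes. Leaving out a WD SW array removed *Per1* from the tested genes, since it was above background on 5 arrays. The clock output count of 10 was 3 with the covariate (18.8% of those tested) and 7 to 10 without single arrays (43.8% to 62.5%). Over all probes 5444 were called, 8853 with median scaling, 3004 with 1 probe per gene, 813 with the covariate and 1553 with the single control, and 3988 to 5944 without single arrays. Median scaling moved the median of all probes to -0.34, and increases made up 20.5% of its calls, against 55.1%. Against CD replicate 1 as single control only the size of a difference is given. Signs turned for *Rora* (-0.30 with the covariate, -0.36 with the single control, -0.047 to 0.20 without single arrays), *Tef* (-0.0066 to 0.38 without single arrays), *Hlf* (0.092 and 0.13), *Cry2* (-0.24 with median scaling, -0.037 with the single control), *Col1a1* (-0.013 with median scaling) and *Ifna1* (0.23 and 0.37). The cause was not tested. Signals near background, those of *Hlf*, *Usp2*, *Per1* and *Cry2* among them, limit what these probes can show.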

Other observations

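The array titles hold a number of unstated meaning, 5 or 7 for WD SW and 12, 13 or 14 for CD. *Dbp* read 11.85, 10.30 and 10.37 on the WD SW arrays with number 7 and 9.75 and 8.14 on those with number 5. It read 8.67 and 7.43 on the CD arrays with number 13, 8.01 on the array with number 14 and 5.95 and 6.08 on those with number 12. *Nr1d2*, a REV-ERB gene, read 7.90 to 8.86 on WD SW and 7.50 to 8.87 on CD arrays, with CD replicate 5 (8.87) the highest of all 10.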
